A study of Mus musculus with 6 samples.

Results

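The genes of the mitochondrial respiratory chain and ATP synthase were chosen by gene symbol: the protein-coding genes of the mitochondrial genome (symbols starting mt-Nd, mt-Co, mt-Cytb or mt-Atp) and nuclear genes named Nduf, Sdha to Sdhd, Uqcr, Cyc1, Cox4 to Cox8 or Atp5, without those marked as pseudogenes (-ps). The rule gave 109 genes of 32026, 13 in the mitochondrial genome and 96 in the nucleus. It used no measured value. Of these, 98 had enough reads to be tested, and the other 11 are 8 tissue or condition isoforms and 3 genes taken here as processed pseudogenes. Poly(A) RNA was measured in 6 libraries from mouse embryonic fibroblast clones immortalized with SV40 large T antigen. The embryos were Macf1flox/+ or Macf1flox/flox, so their Macf1 alleles carried loxP sites, and Macf1 encodes a large protein that links actin filaments and microtubules. All cells had been exposed overnight to AAV8-CMV-Cre, a virus carrying Cre recombinase under the CMV promoter, and each library came from a colony grown from a single cell. The 3 het clones (from Macf1flox/+, Macf1-/+ after Cre) and the 3 knockout clones (from Macf1flox/flox, Macf1-/- after Cre) therefore shared the immortalization, the virus and Cre. The labels do not say that the clones of a genotype came from separate embryos or cultures, so p-values measure the spread between these clones.

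The respiratory chain passes electrons from NADH and succinate to oxygen through complexes I to IV of the inner mitochondrial membrane, and complex V (ATP synthase) uses the resulting proton gradient to make ATP. Complexes I, III, IV and V are mosaics: their membrane cores include proteins translated inside the mitochondrion from mitochondrial mRNAs, while the other subunits are encoded in the nucleus, made in the cytosol and imported. Complex II is wholly nuclear. Mitochondrial mRNAs are cut from long transcripts that cover most of either strand of the circular genome, so their levels are set by processing and decay as well as by transcription.

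Estimated counts totalled 15661342 to 18209673 per library. Macf1 itself (chromosome 4, 123349633 to 123684360, minus strand, GRCm38) measured 693.3, 696.0 and 579.2 CPM (counts scaled to library size) in the het clones and 309.2, 362.5 and 321.5 in the knockout clones. It fell by 0.99 ± 0.13 (SE) on the log2 scale (edgeR quasi-likelihood test, Benjamini-Hochberg adjusted p = 0.00307). Over all 12744 genes tested, 1770 were higher (13.9%) and 1814 were lower (14.2%) in the knockout clones at an adjusted p under 0.05, and for 6055 (47.5%) het and knockout clones did not overlap. Of 10 fibroblast markers, 9 were above 1 CPM, and their summed level was 9700 to 13200 CPM in het and 6010 to 8630 CPM in knockout clones. Of the 8 that were tested, 6 fell, among them the collagen gene Col1a1, from 1230 ± 245 to 7.40 ± 5.75 CPM (SD, n = 3 each). Markers of other cell types moved as well: the epithelial list summed to 16.1 to 56.7 CPM in het and 0.431 to 1.03 CPM in knockout clones, nearly all of it the keratin gene Krt19. Of 4 neural markers 3 fell (Sox2, Tubb3 and Map2), while the list, led by Nes, summed to 103 to 234 CPM and 115 to 125 CPM. The part of these differences in the results on respiratory genes was not tested.

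A set of mitochondrial sequences is shown first because near-identical copies in the nucleus decide how some mitochondrial genes can be read. The nuclear genome holds old insertions of mitochondrial DNA, and on chromosome 1 of GRCm38 a block of such copies, annotated as pseudogenes, runs from Gm28439 to Gm29216 and matches 7 of the 13 mitochondrial genes at 99% identity or more. mt-Nd3 and its copy Gm28438 (chr1:24612775-24613119) differ at a single position over 345 aligned bases, T3C, counted from the first base of mt-Nd3. Their first 48 bases are given with that base in capitals, both from GENCODE M21 transcripts, 5′ to 3′.
mt-Nd3: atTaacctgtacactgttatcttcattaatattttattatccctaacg
Gm28438: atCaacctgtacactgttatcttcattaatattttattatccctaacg
The first 48 bases of mt-Co2 (chrM:7013-7060) and of mt-Atp6 (chrM:7927-7974) were found unaltered in Gm28661 and Gm10925, which match their genes at 100% identity over 681 and 678 bases.
mt-Co2 and Gm28661: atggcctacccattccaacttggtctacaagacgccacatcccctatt
mt-Atp6 and Gm10925: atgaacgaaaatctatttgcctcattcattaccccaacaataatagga
A read from such a stretch fits both loci equally well, and the authors' program divides it by estimation. The last 43 bases of the mt-Atp8 reading frame are also the first 43 of mt-Atp6 (chrM:7927-7969), since the genes overlap in 2 reading frames of 1 mRNA.
mt-Atp8 and mt-Atp6 overlap: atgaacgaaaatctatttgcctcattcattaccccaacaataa
The 7 mitochondrial genes with such copies are mt-Nd3, mt-Nd4, mt-Nd4l, mt-Co1, mt-Co2, mt-Co3 and mt-Atp6. Values are given for these genes alone and, where it matters, summed with the copy.

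All 13 mitochondrially encoded genes had negative fold changes, and 9 of them (69.2%, against 14.2% lower over all genes) fell in the knockout clones. Of the 85 nuclear genes tested, 22 rose (25.9%, against 13.9%) and 2 fell (2.35%, against 14.2%), Atp5g1 and Ndufs5. The median log2 fold change was -0.64 for the mitochondrial genes and 0.23 for the 75 nuclear genes of subunits, while that over all genes tested was 0. In CPM, the mitochondrial genes summed to 21130, 20180 and 17630 in the het clones and to 13140, 11360 and 12450 in the knockout clones, a ratio of 0.627. The nuclear genes summed to 10210, 9755 and 9780 in the het clones and to 12410, 11150 and 10970 in the knockout clones, a ratio of 1.16. The 2 sums thus moved in opposite directions, and in neither did the genotypes overlap. Within each library, the log2 ratio of mitochondrial to nuclear counts was 1.05, 1.05 and 0.85 in the het clones and 0.08, 0.03 and 0.18 in the knockout clones. The mitochondrial genes thus gave about as many reads as the nuclear ones in every knockout clone and well over that in every het clone. The means differed by -0.89, with a spread of 0.099 (SD) between clones of a genotype, and a ratio taken within a library does not depend on how libraries are scaled. With the copies added to the mitochondrial genes the ratios were 1.17, 1.10 and 1.07 against 0.21, 0.08 and 0.34. In RNA from whole cultures, fewer cells with a transcript and less of it per cell cannot be told apart.

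Single clones had a large part in the counts of calls. The 11 members that were lower became 6 and 7 on leaving out het replicate 2 or 3, and 7 and 3 on leaving out knockout replicate 1 or 2. The 22 that were higher became 9, 12, 6 and 7 in the same order. Over all genes, the 3584 calls became 2226, 2424, 1892 and 1565. The medians moved less, from -0.78 to -0.57 for the mitochondrial genes and from 0.19 to 0.25 for the nuclear subunits. Across 17 alternatives, 7 member calls held wherever the gene was tested: Atp5g1, mt-Atp8, Ndufs5, Ndufb4, Ndufa8, Ndufv1 and Ndufa5.

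**Figure D1:**
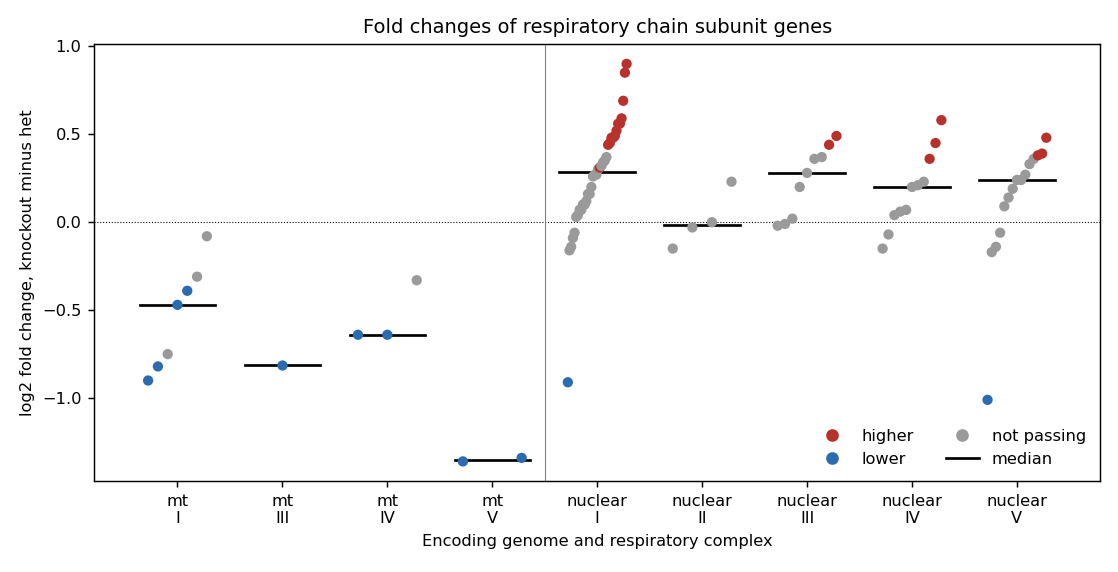
Log2 fold change (knockout minus het, vertical axis) of each tested subunit gene, by encoding genome and complex (horizontal axis), coloured by the edgeR call, with the median of each column as a bar. The mitochondrial columns lie wholly below 0, from -1.36 to -0.08. Of the 75 nuclear genes, 59 had positive and 16 negative fold changes, and in complex II 3 of 4 were negative (median -0.02). The 2 lowest nuclear points are Ndufs5 (-0.91) and Atp5g1 (-1.01).

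The mitochondrial genome encodes 7 subunits of complex I, which form the proton-pumping arm in the membrane, and 4 of the 7 fell (57.1%, against 14.2% over all genes). mt-Nd1 measured 2248, 1665 and 1505 CPM in the het clones and 1099, 874.3 and 923.5 CPM in the knockout clones. It fell by 0.90 ± 0.20 (SE) on the log2 scale (edgeR adjusted p = 0.0172), and no knockout clone reached the lowest het clone. mt-Nd2 measured 946.1, 596.4 and 621.7 CPM against 437.1, 398.1 and 393.9 CPM and fell by 0.82 ± 0.20 (edgeR adjusted p = 0.0233). For this gene het replicate 1 was far above the other het clones. mt-Nd4 and mt-Nd4l lie on 1 mRNA and moved by similar amounts. mt-Nd4 was 914.8, 861.1 and 861.1 CPM in the het clones and 669.2, 548.8 and 685.4 CPM in the knockout clones, a fall of 0.47 ± 0.13 (edgeR adjusted p = 0.0396). mt-Nd4l was 184.4, 161.0 and 160.0 against 143.4, 116.8 and 125.0 CPM, a fall of 0.39 ± 0.11 (edgeR adjusted p = 0.041). The copies of these 2 genes, Gm28439 and Gm10222, held 0 counts in all 6 libraries.

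The other 3 complex I genes of the mitochondrial genome did not pass. mt-Nd5 measured 971.5, 643.7 and 693.9 CPM against 694.3, 551.7 and 618.5 CPM (log2 fold change -0.31 ± 0.19, edgeR adjusted p = 0.263), and the genotypes overlapped. Without het replicate 1, the highest clone, it was -0.11. mt-Nd6, the only protein-coding gene read from the other strand of the circle, had the fold change nearest 0. It measured 209.5, 137.2 and 148.6 CPM in the het clones and 185.6, 127.8 and 156.7 CPM in the knockout clones (log2 fold change -0.08 ± 0.20, edgeR adjusted p = 0.804). Its standard error equalled those of mt-Nd1 and mt-Nd2, and whether its change differs from theirs was not tested. Whether the reads counted for mt-Nd6 came from its own strand was not tested either. Nor was its capture by poly(A) selection compared with that of the other mitochondrial genes. mt-Nd3 measured 51.95, 18.49 and 23.81 CPM against 17.59, 22.38 and 15.93 CPM (-0.75 ± 0.39, edgeR adjusted p = 0.194). Here too het replicate 1 stood above the others, and without it the fold change was -0.19. Its copy Gm28438, which differs from it by T3C alone over the aligned bases, took 71.5% to 82.7% of the reads of the pair in every library. Gene and copy summed to 204.3, 107.2 and 109.8 CPM in the het clones and 83.35, 78.43 and 85.06 CPM in the knockout clones (-0.77 ± 0.26, edgeR adjusted p = 0.0647), so the genotypes no longer overlapped but the sum did not pass.

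mt-Cytb, the only subunit of complex III encoded in the mitochondrion, was 2373, 2373 and 2388 CPM in the het clones. These were the closest het values among the mitochondrial genes, and the knockout clones lay far below them at 1334, 1202 and 1523 CPM. It fell by 0.81 ± 0.15 on the log2 scale (edgeR adjusted p = 0.0101), a call lost only without knockout replicate 2.

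Complex IV, cytochrome c oxidase, takes its 3 catalytic core subunits from the mitochondrial genome. mt-Co1, which holds the oxygen-reducing centre, was the most abundant member per length, at 4440 FPKM (counts scaled to transcript length and library size) in het and 2920 FPKM in knockout clones. In CPM it measured 6983, 6764 and 6599 against 4836, 3822 and 4387 and fell by 0.64 ± 0.19 on the log2 scale (edgeR adjusted p = 0.0427). No knockout clone reached a het clone, but the call was near the threshold, and with the copy Gm29216 added the change was -0.60 ± 0.19 (edgeR adjusted p = 0.0573). mt-Co3 measured 2229, 1961 and 1981 CPM against 1464, 1182 and 1314 CPM and fell by 0.64 ± 0.15 (edgeR adjusted p = 0.0227). Its copy Gm28437 went the other way, from 1.43, 2.28 and 7.75 CPM to 26.7, 32.0 and 22.6 CPM, but held no more than 2.63% of the pair.

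mt-Co2 alone did not pass, and a single clone set this apart. It measured 2979, 2672 and 527.1 CPM in the het clones and 1664, 1553 and 1714 CPM in the knockout clones (log2 fold change -0.33 ± 0.58, edgeR adjusted p = 0.707). In het replicate 3 the copy Gm28661 was listed at 2184 CPM, 80.6% of the pair, whereas it held 0.753% to 6.83% of the pair in the other 5 libraries. Summed, gene and copy gave 3002, 2791 and 2713 CPM in the het clones and 1764, 1565 and 1839 CPM in the knockout clones. The genotypes then separated, and the sum fell by 0.72 ± 0.15 on the log2 scale (edgeR adjusted p = 0.015). Without het replicate 3 the fold change of mt-Co2 alone was -0.78.

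Complex V holds 2 mitochondrial proteins, the a subunit (mt-Atp6), through which protons pass, and the small membrane protein of mt-Atp8. Both fell, with the largest changes of the mitochondrial genes. mt-Atp8 measured 174.3, 182.4 and 161.0 CPM in the het clones and 77.06, 58.01 and 69.95 CPM in the knockout clones. It fell by 1.34 ± 0.13 on the log2 scale (edgeR adjusted p = 0.00105), and it kept its call in every alternative that tested it. mt-Atp6 measured 864.7, 2149 and 1959 CPM against 517.7, 899.9 and 520.4 CPM and fell by 1.36 ± 0.39 (edgeR adjusted p = 0.0425), with het replicate 1 inside the knockout range. The copy Gm10925 held 56.7%, 51.9% and 56.2% of the pair in het replicate 1 and knockout replicates 1 and 3, and 1.42% to 8.88% in the other clones. Summed, they gave 1996, 2226 and 2151 CPM against 1076, 912.9 and 1187 CPM, with no overlap and a fall of 1.0 ± 0.16 (edgeR adjusted p = 0.00536).

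With all copies added, 9 of the 13 mitochondrial genes fell and the genotypes did not overlap in 11, against 8 for the genes alone. Over all genes, without copies added, 14.2% were lower and the genotypes did not overlap in 47.5%. The median of the 13 genes became -0.72, with a range of -1.34 to -0.08. Which genes fell changed, since mt-Co2 entered and mt-Co1 left.

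**Figure D2:**
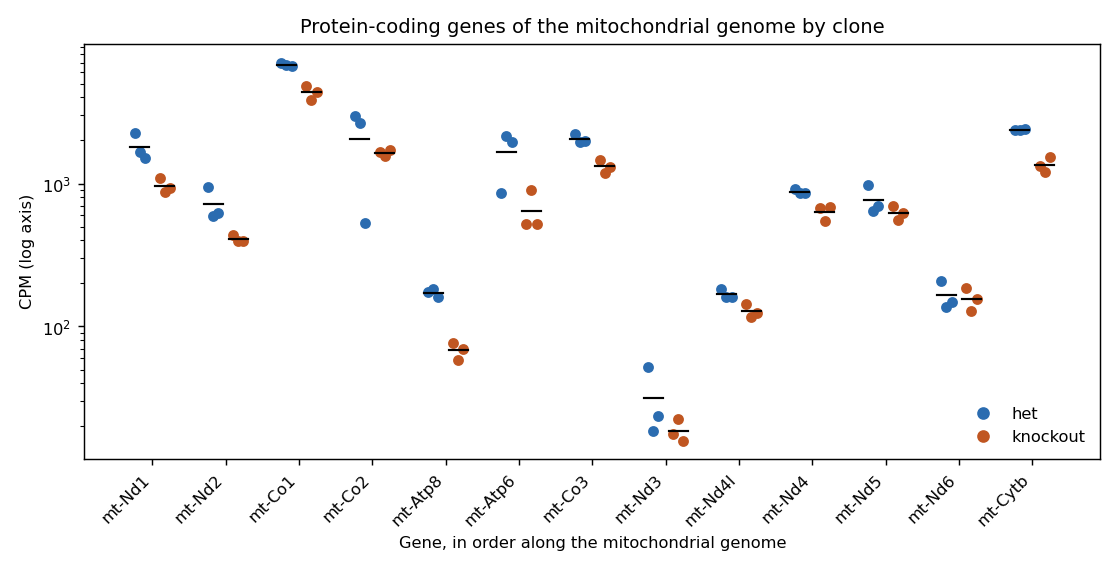
CPM on a log axis (vertical) of the 13 protein-coding genes of the mitochondrial genome, in their order along it (horizontal), for 3 het and 3 knockout clones, with bars at the group means. The single low het point of mt-Co2 is het replicate 3 at 527.1 CPM, and mt-Nd6 is the gene whose clones overlap with nearly equal means, 165 and 157 CPM.

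**Figure D3:**
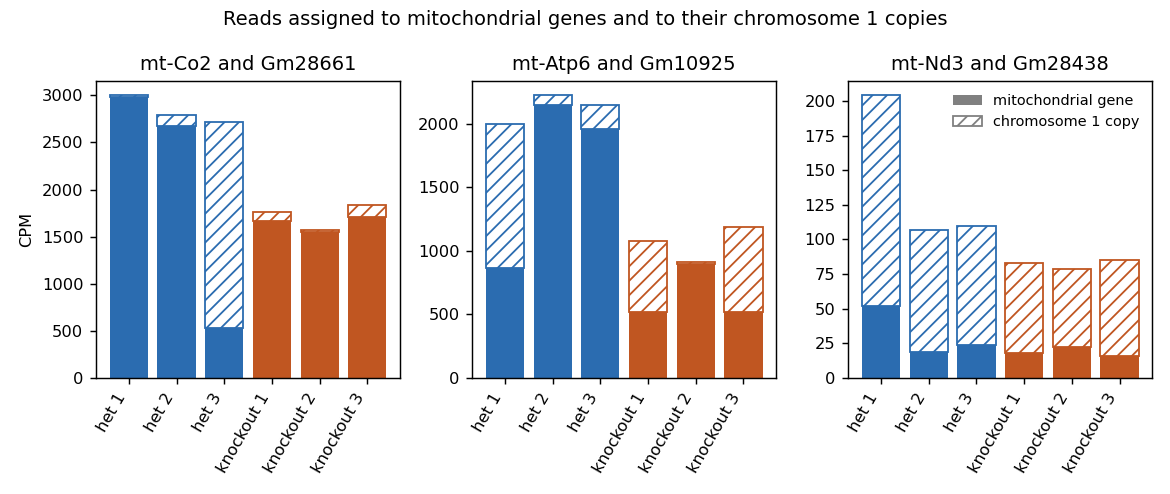
CPM (vertical) assigned in each library to mt-Co2, mt-Atp6 and mt-Nd3 (filled) and to their chromosome 1 copies (hatched), stacked, on a linear axis from 0. The split varies between libraries, up to 80.6% for Gm28661 in het replicate 3, while the stacked totals of every het clone exceed those of every knockout clone.

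On the nuclear side, complex I gave the most calls. Of its 36 tested nuclear subunit genes, 13 rose (36.1%, against 13.9% over all genes) and 1 fell (2.78%, against 14.2%). Their median log2 fold change was 0.28. For 24 of them the clones did not overlap (47.5% over all genes). The 36 genes summed to 2430, 2334 and 2511 CPM in the het clones and 3076, 2801 and 2924 CPM in the knockout clones. Core subunits carry the electron path, and accessory subunits surround and stabilize it. Of the core genes 1 of 7 rose (14.3%), and of the accessory genes 12 of 29 (41.4%), against 13.9% over all genes. Whether these shares differ was not tested.

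The core subunit that rose was Ndufv1, which binds NADH. It measured 147.4, 120.1 and 164.2 CPM in the het clones and 239.4, 218.2 and 236.9 CPM in the knockout clones, a rise of 0.69 ± 0.13 on the log2 scale (edgeR adjusted p = 0.0105). The other 6 core genes did not pass. Among the abundant genes per length that did not pass was the accessory gene Ndufb9, with 99.10, 121.9 and 116.6 CPM against 124.5, 109.7 and 111.9 CPM (0.04 ± 0.11, edgeR adjusted p = 0.83). Its clones of the 2 genotypes were intermixed.

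Among accessory subunits, Ndufb4 had the smallest adjusted p of those that rose. It measured 17.65, 15.87 and 16.51 CPM in the het clones and 30.32, 29.68 and 30.19 CPM in the knockout clones, a rise of 0.85 ± 0.11 (edgeR adjusted p = 0.00258). The clones of each genotype lay close together, and the groups were far apart. Ndufa13, also known as a cell death regulator (GRIM-19), measured 73.79, 55.77 and 94.93 CPM against 133.5, 127.4 and 157.0 CPM and rose by 0.90 ± 0.20 (edgeR adjusted p = 0.0172), with a wider spread in the het clones. Ndufa8 was 71.39, 69.88 and 77.88 CPM in the het clones and 110.6, 107.8 and 105.1 CPM in the knockout clones, a rise of 0.56 ± 0.09 (edgeR adjusted p = 0.0051). Ndufb8, whose protein is often used as a marker of assembled complex I, was 121.1, 111.3 and 125.7 CPM against 186.1, 166.3 and 173.7 CPM, a rise of 0.56 ± 0.09 (edgeR adjusted p = 0.0066). Ndufa5 was 43.57, 53.18 and 49.91 CPM against 74.31, 67.97 and 78.64 CPM, a rise of 0.59 ± 0.11 (edgeR adjusted p = 0.0106). None of these genes, named because they passed, overlapped between the genotypes, and 47.5% of all genes tested did not overlap either. The remaining 7 accessory genes that rose, Ndufb10, Ndufs6, Ndufa1, Ndufa7, Ndufa6, Ndufa9 and Ndufb11, had fold changes of 0.31 to 0.52 and edgeR adjusted p-values of 0.0163 to 0.0431. Of the 8 assembly factors, which help build complex I and are not part of it, only Ndufaf6 rose (12.5%, against 13.9% over all genes). It went from 5.77 ± 0.91 to 9.59 ± 0.919 CPM (SD, n = 3 each), at an edgeR adjusted p of 0.0378.

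Ndufs5, an accessory subunit of the membrane arm, moved against the rest of complex I. It measured 34.69, 31.80 and 33.40 CPM in the het clones and 16.61, 17.78 and 18.85 CPM in the knockout clones and fell by 0.91 ± 0.11 on the log2 scale (edgeR adjusted p = 0.00223). The gene lies on chromosome 4 (123712710 to 123718202, minus strand, GRCm38), 28.4 kb from Macf1, on the same strand and upstream of it. Its fall was close in size to that of Macf1 itself (-0.99). On its other side, Akirin1, at 16.4 kb, measured 62.8 ± 8.01 and 63.4 ± 6.99 CPM (SD, n = 3 each; 0.01 ± 0.13, edgeR adjusted p = 0.956). The next gene, Rhbdl2, fell from 11.9 ± 10.1 to 0.397 ± 0.303 CPM (edgeR adjusted p = 0.0324), and the 4 further tested genes within 400 kb did not pass. The part of the change at Macf1 in that of Ndufs5 was not tested.

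The 4 subunits of complex II, succinate dehydrogenase, gave 0 calls in edgeR in either direction, with 0 at an unadjusted p under 0.05, 0 in DESeq2 and 0 in limma-voom. Over all genes, 13.9% were higher and 14.2% lower in edgeR. Sdha, the subunit that oxidizes succinate, measured 264.2, 269.4 and 223.8 CPM in the het clones and 291.2, 284.9 and 312.8 CPM in the knockout clones (0.23 ± 0.11, edgeR adjusted p = 0.159), without overlap. Sdhc, a membrane anchor, measured 93.58, 118.0 and 114.5 CPM against 99.75, 94.43 and 99.33 CPM (-0.15 ± 0.11, edgeR adjusted p = 0.341). Sdhb was at 106 CPM in both groups. The 4 genes summed to 590.9 ± 36.9 and 620.9 ± 24.1 CPM (SD, n = 3 each), so the means differed by less than the SD of the het clones.

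In complex III, 2 of 9 nuclear genes rose (22.2%, against 13.9% over all genes), Uqcrc1 and Uqcrc2, the pair of core proteins on the matrix side. Uqcrc1 measured 154.7, 169.1 and 152.6 CPM against 225.4, 221.2 and 201.1 CPM, a rise of 0.44 ± 0.09 (edgeR adjusted p = 0.0148). Uqcrc2 measured 126.6, 130.6 and 116.1 CPM against 196.0, 166.7 and 162.9 CPM, a rise of 0.49 ± 0.11 (edgeR adjusted p = 0.016). The 2 genes kept clear of overlap in all clones, as did 47.5% of all genes tested. Cyc1, the cytochrome c1 subunit, was just outside the threshold, at 142.8, 159.5 and 144.0 CPM against 214.8, 194.0 and 168.9 CPM (0.37 ± 0.11, edgeR adjusted p = 0.0506). The hinge protein gene Uqcrh (154.2, 147.7 and 121.8 CPM against 138.7, 132.3 and 145.8 CPM) and Uqcrb (103.4, 115.4 and 74.68 CPM against 112.8, 107.8 and 115.6 CPM) were the most abundant per length that did not pass, at -0.02 ± 0.11 and 0.20 ± 0.16, and both overlapped.

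In complex IV, 3 of 11 common nuclear subunits rose (27.3%, against 13.9% over all genes): Cox6a1, Cox8a and Cox7a2, which sit around the mitochondrial core. Cox6a1 measured 110.2, 120.8 and 139.3 CPM in the het clones and 195.0, 164.4 and 192.2 CPM in the knockout clones, a rise of 0.58 ± 0.12 (edgeR adjusted p = 0.015). Cox8a rose by 0.45 ± 0.11, from 138.2, 131.0 and 147.9 CPM to 174.2, 182.3 and 212.8 CPM (edgeR adjusted p = 0.0232). Cox7a2 rose by 0.36 ± 0.10, from 109.9, 131.0 and 116.7 CPM to 157.4, 142.8 and 160.2 CPM (edgeR adjusted p = 0.0376). The groups did not overlap in these 3 genes, nor in 47.5% of all genes tested. Cox4i1, a regulatory subunit and the most abundant of the nuclear complex IV genes per length, measured 296.6, 259.1 and 250.5 CPM against 333.2, 307.5 and 291.3 CPM (0.21 ± 0.11, edgeR adjusted p = 0.2), and Cox6c gave 119.1, 169.6 and 139.8 CPM against 175.1, 158.7 and 169.0 CPM (0.23 ± 0.14, edgeR adjusted p = 0.252). In these genes at least 1 het clone reached the knockout range.

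Several complex IV subunits have forms used in other tissues or in low oxygen, and all were near 0 in both genotypes. The lung form Cox4i2 had 3, 4 and 2 counts in the het clones and 0 in each knockout clone, and the testis form Cox6b2 had 1, 7 and 6 counts and again 0 in each knockout clone. A total of 0 over 3 clones allows up to 3 counts, and both genes were below the level tested. The muscle forms Cox6a2 (7, 0 and 0 counts against 2, 0 and 9), Cox7a1 (2, 10 and 13 against 2, 1 and 3) and Cox8b (0, 1 and 0 against 0, 0 and 0) stood beside 1836 to 4116 counts per clone for the common forms Cox6a1, Cox7a2 and Cox8a. The low-oxygen gene Ndufa4l2 had 0, 2 and 1 counts against 1, 0 and 0, where its common relative Ndufa4 had 2381 to 2833. Cox7b2 and Cox8c had 0 counts in all 6 libraries, as did Ndufs6b, taken here as a pseudogene. Of 8 muscle markers, Myog and Myod1 were at 0, but their summed level was 3.77 to 10.5 CPM in het and 13.4 to 24.4 CPM in knockout clones. Among the 4 tested, Des rose from 1.10 ± 0.409 to 3.09 ± 1.06 CPM (SD, n = 3 each; edgeR adjusted p = 0.0411) and Actn2 fell from 1.09 ± 0.168 to 0.348 ± 0.149 CPM (edgeR adjusted p = 0.0301). Tnnt2 was at 3.17 ± 4.20 and 16.1 ± 6.37 CPM and did not pass.

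Complex V gave 3 rises (20.0%, against 13.9% over all genes) and 1 fall (6.67%, against 14.2%) among 15 nuclear subunits. The rises were Atp5c1, the central stalk that turns inside the catalytic head (247.4, 232.2 and 224.0 CPM against 367.0, 320.1 and 297.0 CPM; 0.48 ± 0.11, edgeR adjusted p = 0.0209), and 2 other subunits. Atp5o, at the top of the outer stalk, gave 223.3, 218.2 and 217.6 CPM against 297.6, 268.1 and 297.8 CPM (0.39 ± 0.09, edgeR adjusted p = 0.0209). Atp5k, in the membrane, gave 72.11, 66.51 and 68.85 CPM against 87.75, 82.80 and 99.68 CPM (0.38 ± 0.10, edgeR adjusted p = 0.0319). The genotypes did not overlap in any of the 3, nor in 47.5% of all genes tested. The head subunits themselves did not pass. Atp5b, the catalytic β subunit and the most abundant nuclear member per length, gave 1767, 1633 and 1523 CPM against 2444, 2062 and 1827 CPM (0.36 ± 0.17, edgeR adjusted p = 0.15), and Atp5a1, the α subunit, gave 925.3, 645.3 and 778.7 CPM against 826.0, 723.3 and 542.9 CPM (-0.17 ± 0.21, edgeR adjusted p = 0.579).

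Atp5g1 had the smallest adjusted p of all members. It is 1 of 3 genes, with Atp5g2 and Atp5g3, that encode the same mature c subunit of the rotating ring and differ in their import signals. It measured 115.6, 104.9 and 108.0 CPM in the het clones and 55.66, 55.76 and 51.75 CPM in the knockout clones and fell by 1.01 ± 0.09 on the log2 scale (edgeR adjusted p = 0.000776). Atp5g3, the most abundant of the 3, gave 207.3, 212.9 and 201.3 CPM against 229.3, 198.6 and 170.1 CPM (-0.06 ± 0.12, edgeR adjusted p = 0.766), and Atp5g2 gave 19.92, 11.59 and 15.66 CPM against 21.77, 18.70 and 15.06 CPM (0.24 ± 0.24, edgeR adjusted p = 0.491). The fall was thus called for Atp5g1 alone among the 3. Together they summed to 342.8, 329.4 and 325.0 CPM in the het clones and 306.7, 273.1 and 236.9 CPM in the knockout clones, a ratio of 0.819. Atp5g1 lies on chromosome 11 (96068852 to 96075670, minus strand, GRCm38) with Ube2z at 3.5 kb, which did not pass (0.14 ± 0.09, edgeR adjusted p = 0.294). Farther off in the direction of higher coordinates, at 195.8 kb and beyond, all 8 tested genes from Hoxb9 to Hoxb2 rose, Hoxb9 from 2.38 ± 1.96 to 142 ± 5.73 CPM (SD, n = 3 each; edgeR adjusted p = 0.00199). Their part in the fall of Atp5g1 was not tested.

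**Figure D4:**
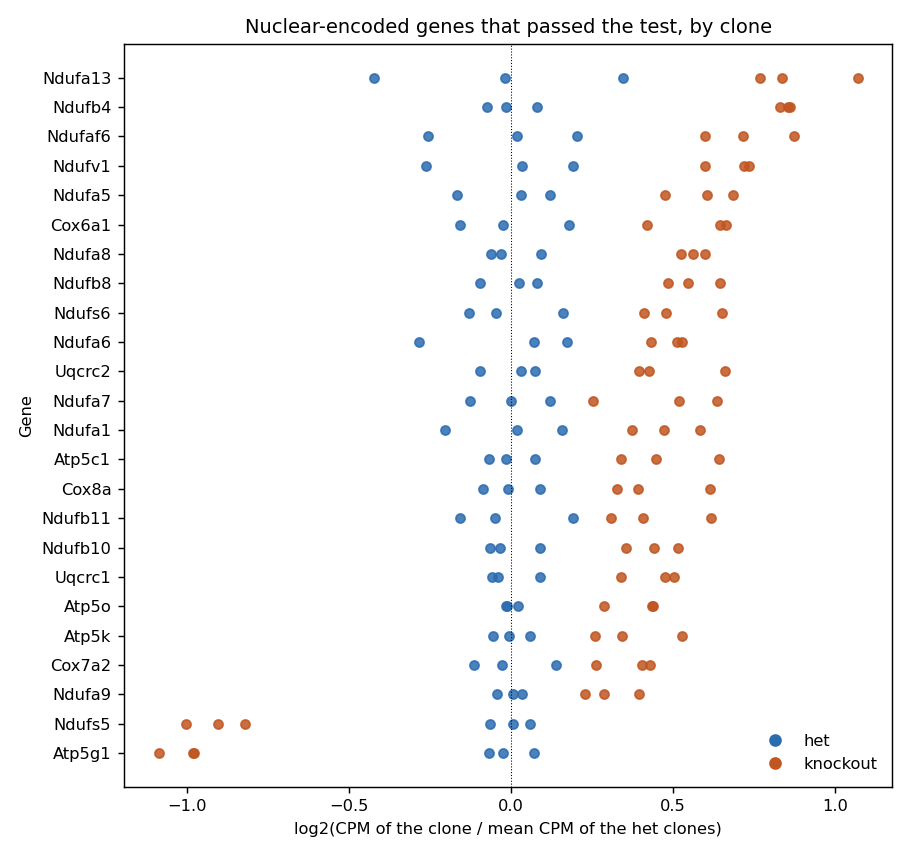
Log2 of each clone's CPM over the mean of the het clones (horizontal axis) for the 24 nuclear genes that passed (vertical axis), 3 het and 3 knockout clones each. Knockout clones lie to the right of the het clones in 22 genes and to the left in Ndufs5 and Atp5g1, with no overlap in any row. The rows were chosen by the test on these same clones, so their separation is no further evidence. Over all genes tested, 47.5% did not overlap.

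**Figure D5:**
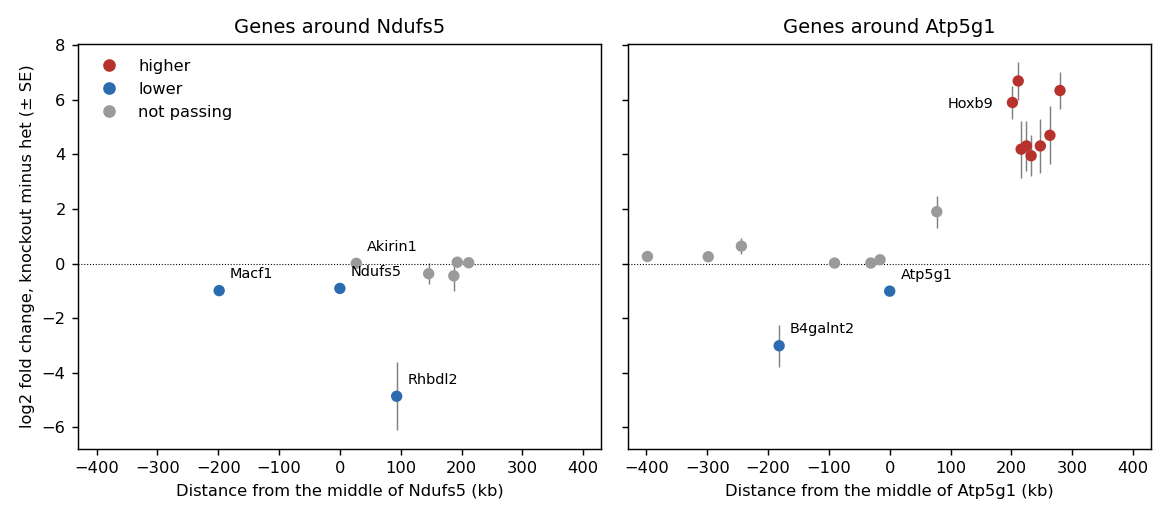
Log2 fold change (knockout minus het, ± SE, vertical axis) of the tested genes within 400 kb of Ndufs5 and Atp5g1 against the distance between gene midpoints in kb (horizontal axis), coloured by the edgeR call. Ndufs5 (-0.91) and Macf1 (-0.99) lie at the same height with Akirin1 at 0.01 beside them, and the 8 Hoxb genes stand far above Atp5g1.

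Promoter sequences are shown for the nuclear members with the 3 smallest adjusted p-values, Atp5g1, Ndufs5 and Ndufb4, because many respiratory genes are driven by the factors NRF1, GABPA (an ETS factor), ERR and YY1. Each runs from 250 bases before to 50 bases after the RefSeq start of the gene (GRCm38.p6), 5′ to 3′ along the gene. Capitals mark matches, on either strand, to GCGCANGCG (NRF1), CCGGAAG (ETS), AAGGTCA (ERR) and AAGATGGC (YY1).
Atp5g1 (chr11:96075582-96075881, minus strand): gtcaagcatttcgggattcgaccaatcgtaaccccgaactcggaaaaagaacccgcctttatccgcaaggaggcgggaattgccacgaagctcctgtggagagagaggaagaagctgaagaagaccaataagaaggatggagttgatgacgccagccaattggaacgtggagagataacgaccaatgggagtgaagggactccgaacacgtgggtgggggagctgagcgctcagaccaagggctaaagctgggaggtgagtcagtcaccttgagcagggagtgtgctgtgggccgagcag
Ndufs5 (chr4:123718137-123718436, minus strand): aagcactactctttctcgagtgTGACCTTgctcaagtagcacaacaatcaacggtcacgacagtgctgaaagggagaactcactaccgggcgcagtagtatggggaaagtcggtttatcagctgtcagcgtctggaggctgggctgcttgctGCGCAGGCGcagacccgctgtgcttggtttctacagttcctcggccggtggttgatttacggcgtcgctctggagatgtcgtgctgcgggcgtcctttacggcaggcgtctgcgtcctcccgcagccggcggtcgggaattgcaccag
Ndufb4 (chr16:37654319-37654618, minus strand): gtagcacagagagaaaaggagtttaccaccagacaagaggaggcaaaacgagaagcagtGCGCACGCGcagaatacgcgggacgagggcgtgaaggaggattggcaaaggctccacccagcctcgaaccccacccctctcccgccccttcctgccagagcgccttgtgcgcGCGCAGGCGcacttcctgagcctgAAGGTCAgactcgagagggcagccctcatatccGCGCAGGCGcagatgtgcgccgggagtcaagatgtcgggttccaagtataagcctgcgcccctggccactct
Atp5g1 held no match in this window. Ndufs5 held 1 NRF1 match, 98 bases before the start, and 1 ERR match on the reverse strand, 228 bases before it. Ndufb4, which rose, held 3 NRF1 matches, 191, 79 and 22 bases before the start, and 1 ERR match at 55 bases. These matches did not overlap each other.

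Of the 85 nuclear members tested, 72 had a promoter in the RefSeq table. An NRF1 match was found in 22 of the 72 (30.6%), against 15.7% of 9778 tested genes with a promoter and 7.03% of all 27025 promoters. It was found in 11 of 20 promoters of genes that rose (55.0%) and in 10 of 50 of those that did not pass (20.0%). A YY1 match was in 15.3% of the members' promoters against 5.40% of tested genes, and an ERR match in 11.1% against 3.70%. The ETS match was in 23.6% against 20.5%, and in 3 of 20 that rose against 14 of 50 that did not pass. A match describes letters in a window and shows no binding, and none of these shares was tested.

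The level of a gene's chromosome moved with some of the rises. The median log2 fold change was 0.389 over the tested genes of chromosome 19, which carries Ndufv1, Ndufb8 and Cox8a. On chromosome 16, which carries Ndufb4 and Atp5o, it was 0.255. Of the genes outside the members described below, Usmg5 lies on chromosome 19 and Cox17 on chromosome 16. Slirp and Yy1 lie on chromosome 12, where the median was higher still, at 0.409. The 7 tested genes of chromosome Y had a median of 2.255, and its cause was not tested. With each chromosome's median taken out, 24 members were higher and 12 lower, and the median of the nuclear subunits was 0.17 in place of 0.23. In that setting 27.0% of all genes tested were called in either direction. The calls of Ndufb8, Cox8a, Atp5o, Ndufa6, Ndufa7 and Ndufb11 were lost, while those of Ndufv1 and Ndufb4 held. The part of the chromosomes' medians in the other calls was not tested.

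The authors' deposited table, which tests single transcripts, was read for the most abundant transcript of each member. In it 0 of 13 mitochondrial genes were higher and 7 lower, with a median log2 fold change of -0.61, and 6 of 85 nuclear genes were higher and 2 lower, with a median of 0.25. Over all 24799 transcripts of the authors' deposited table, less abundant ones of each gene included, 1594 were higher and 1885 lower. The share of rises among the nuclear genes was thus close to that over all transcripts. For Atp5g1 it gives -1.12 (adjusted p 1.27e-05 in the authors' deposited table), for mt-Atp8 -1.30 (3.44e-07) and for Ndufs5 -0.86 (0.0179).

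Genes that feed, build or express the respiratory chain were read from lists kept apart from the members. Among cytochrome c, coenzyme Q synthesis and other electron donors, 6 of 22 tested genes rose (27.3%, against 13.9% over all genes) and 0 fell (against 14.2%) in edgeR (median 0.19). At an unadjusted p under 0.05, 2 were lower, and DESeq2 called 1 lower and limma-voom 0. The gene with the smallest adjusted p was Coq5, a methyltransferase of coenzyme Q synthesis, at 28.01, 25.02 and 20.32 CPM against 56.54, 49.27 and 53.77 CPM (1.12 ± 0.14, edgeR adjusted p = 0.00268). Cytochrome c itself (Cycs) did not pass (0.26 ± 0.16, edgeR adjusted p = 0.261). Of 49 genes listed as assembly factors outside the symbol rule, 7 rose and 4 fell (8.16%, against 14.2% over all genes), with a median of 0.09. The share of rises, 14.3%, was close to the 13.9% over all genes. The list also held the ATP synthase subunit gene Usmg5, which rose (0.53 ± 0.09, edgeR adjusted p = 0.00796). The ATP synthase inhibitor gene Atpif1, likewise in the list, fell (-0.51 ± 0.14, edgeR adjusted p = 0.0356). Among the listed genes Surf1, which helps assemble complex IV, measured 30.10, 33.65 and 33.90 CPM against 75.18, 75.38 and 80.19 CPM and rose by 1.24 ± 0.10 (edgeR adjusted p = 0.000524). Cox17, a copper carrier to complex IV, rose by 0.78 ± 0.10 (edgeR adjusted p = 0.00281).

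The machinery that makes and handles mitochondrial RNA is read against the 13.9% of all genes that were higher and the 14.2% that were lower. Of 18 tested genes of mitochondrial transcription and replication, 4 rose (22.2%) and 0 fell in edgeR (median 0.09), with 0 lower at an unadjusted p under 0.05, in DESeq2 or in limma-voom. The packaging and transcription factor Tfam measured 50.96, 51.90 and 49.15 CPM against 47.10, 44.97 and 45.34 CPM (-0.15 ± 0.09, edgeR adjusted p = 0.247), and the mitochondrial RNA polymerase Polrmt gave 0.02 ± 0.12 (edgeR adjusted p = 0.92). Tfb1m, which methylates mitochondrial ribosomal RNA, rose by 0.89 ± 0.19 (edgeR adjusted p = 0.0155). Of 23 genes of mitochondrial RNA processing, 6 rose (26.1%) and 1 fell (4.35%), with a median of 0.02. Slirp, which binds and stabilizes mitochondrial mRNAs together with Lrpprc, rose by 0.79 ± 0.12 (edgeR adjusted p = 0.00468), while Lrpprc did not pass (0.16 ± 0.18, edgeR adjusted p = 0.526). Of 77 mitochondrial ribosomal protein genes, 22 rose (28.6%) and 2 fell (2.60%), with a median of 0.19, and Mrps2 went from 56.49, 60.55 and 66.28 CPM to 105.9, 100.1 and 108.4 CPM (0.78 ± 0.10, edgeR adjusted p = 0.00258).

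Among 19 tested regulators of mitochondrial biogenesis, 5 rose (26.3%, against 13.9% over all genes) and 1 fell (5.26%, against 14.2%), with a median of 0.15. Nrip1, a corepressor of respiratory genes, rose by 1.02 ± 0.12 (edgeR adjusted p = 0.00223), and Gabpa, which encodes a factor of the ETS class named above, rose by 0.42 ± 0.10 (edgeR adjusted p = 0.025). The others that rose were Pprc1 (0.50 ± 0.11, edgeR adjusted p = 0.0192), Esrra (0.65 ± 0.17, edgeR adjusted p = 0.0284) and Yy1 (0.33 ± 0.10, edgeR adjusted p = 0.0422). Esrra and Yy1 encode an ERR factor and YY1, also named above. The 5 genes that rose lie on chromosome 12 (Yy1), chromosome 16 (Nrip1 and Gabpa) and chromosome 19 (Pprc1 and Esrra). The medians of these chromosomes were 0.409, 0.255 and 0.389, so Yy1 rose by less than the median of its chromosome. The part of these medians in the 5 rises was not tested. Creb1, which encodes a factor that responds to cyclic AMP, was the one that fell, by 0.42 ± 0.09 (edgeR adjusted p = 0.0139). Nrf1 did not pass, at 64.16, 59.36 and 53.61 CPM against 70.77, 69.82 and 55.00 CPM (0.14 ± 0.13, edgeR adjusted p = 0.455). Its level thus overlapped between the genotypes.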

How the data were processed

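Poly(A) RNA libraries of 3 het and 3 knockout clones were made with a stranded kit, per the labels' protocols. Trimmomatic 0.36, kallisto 0.42.5 and edgeR, with build GRCm38.p4, are named in the submitters' processing notes. The authors deposited estimated counts per transcript (48.0% of values not whole) for 96626 transcripts, FPKM values for 24799 transcripts, and a comparison per transcript with log2 fold changes and p-values, per the file headers.

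Estimated counts were summed per gene with GENCODE M21 (GRCm38) and rounded; 1153 transcripts without a gene, under 0.028% of a library's counts, were left out, and 2 gene IDs were merged with another of the same symbol. Genes passing filterByExpr (count minimum 10, total minimum 15) were scaled by TMM and tested in edgeR 4.0.16 (R 4.3.3) by the robust two-sided quasi-likelihood F test. The p-values were adjusted over 12744 genes after Benjamini and Hochberg, and standard errors come from the F statistic. CPM values use TMM-scaled library sizes. The members, lists and motifs were chosen with earlier results of these data known. The procedure was tested on simulated counts. Ndufaf8 and Atp5mpl carry older names in the deposited files and, like Usmg5, fall outside the symbol rule. Ribosomal and transfer RNA genes of the mitochondrion were not analysed here. The values of 1 member are not reported here. Copies were found by BLAST against GENCODE transcripts (90% identity, 100 bases) and kept at 99% identity.

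Named genes were all mitochondrial members, passing members by adjusted p (up to 30), the tissue isoforms, the 2 most abundant others per complex, and from each other list up to 4 passing genes. Sdhb, Cyc1, Atp5g2, Atp5g3, Cycs, Tfam, Polrmt, Lrpprc, Nrf1, Esrra, Yy1, Atpif1 and the cell type markers were added after their values were seen. Alternatives were DESeq2 1.42.0, limma-voom (limma 3.58.1), library totals or RLE in place of TMM, 2 other low-count filters, limma on log2(FPKM + 1) and log2(FPKM + 0.1), mitochondrial genes left out, chromosome medians taken out, each clone left out and, added after seeing the data, copies summed.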

Additional observations from a re-analysis of the deposited data

How the results depend on the processing

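No paired analysis was possible because replicate numbers follow only the order of the samples and pair no clones. The 11 members lower became 7 with no filter on low counts, and the median of the nuclear subunits became 0.17 with chromosome medians taken out (chromosomes with few tested genes and the mitochondrial genome were left as they were). DESeq2 gave 11 lower and 26 higher members, limma on log2(FPKM + 1) 9 and 26, and library totals 11 and 19. The genes called over all, in either direction, changed as well. They were 34.2% in DESeq2, 30.1% in limma on log2(FPKM + 1), 25.8% with library totals and 16.5% with no filter. The edgeR fit used above called 3584 of 12744. With each clone left out in turn, the members lower ranged from 3 to 8, the members higher from 6 to 19, the genes called from 1565 to 3824, the mitochondrial median from -0.78 to -0.57 and the mitochondrial to nuclear difference from -0.95 to -0.85. The difference was -0.90 with copies summed. Some genes that did not pass changed sign: mt-Co2 to 0.04 (limma-voom) and 0.06 (both FPKM scales), Ndufb9 to -0.07 (chromosome medians), Sdhb to 0.02 (no filter), 0.04 (both FPKM scales) and 0.11 (chromosome medians), Sdhd to 0.01 (both FPKM scales), and Uqcrh to 0.02 (both FPKM scales) and 0.09 (chromosome medians). Outside the members, Akirin1 went to -0.01 (library totals, and CPM of at least 1) and Polrmt to -0.0 (CPM of at least 1). With single clones left out, mt-Co2 ranged from -0.78 to 0.03, mt-Nd3 from -1.03 to -0.19, mt-Nd5 from -0.43 to -0.11, mt-Nd6 from -0.22 to 0.13, Ndufb9 from -0.05 to 0.09, Sdhb from -0.03 to 0.02, Sdhd from -0.10 to 0.06, Uqcrh from -0.12 to 0.04, Atp5g3 from -0.17 to 0.04, Akirin1 from -0.08 to 0.11 and Polrmt from -0.05 to 0.12. The cause was not tested. Counts of 3 clones a genotype leave small changes undetected.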
